A study of Mus musculus with 54 samples.

Results

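A set of 9 mouse genes of the B cell lineage was followed across 54 Affymetrix Mouse Gene 1.1 ST arrays of 7 tissues. They were taken by symbol from the platform annotation and make up 9 of the 18759 genes with a probe set of their own, on 10 of the 25917 probe sets of the array. The genes are Cd79a (probe set 10551025), Cd79b (10392142), Ighm (10402991 and 10403054), Ms4a1 (10466172), Cd22 (10562132), Fcer2a (10576757), Cr2 (10361292), Blk (10420758) and Pax5 (10512669). The study compared mice of the strain C57BL6 that had swum with control mice, in spleen, subcutaneous and visceral white fat, kidney, liver, brain and muscle. All mice were 14 weeks old at sampling and entered the study at 11 to 12 weeks. Swim mice had 9 days of acclimation in which the daily session grew in steps of 10 min, and then 3 weeks with 2 sessions a day of 90 min, separated by 4 h of rest. What control mice did during that time was not given in the sources used here. Groups held 4 arrays each, except control liver and swim muscle with 3. The labels do not say whether arrays came from separate animals, so p-values measure the spread between these arrays, which may be partly technical.

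B cells recognise antigen through a membrane immunoglobulin, whose heavy chain in naive cells is encoded by Ighm, and pass the signal on through the CD79A and CD79B chains and Src family kinases such as BLK. CD20 (Ms4a1), CD22, CD23 (Fcer2a) and complement receptor 2 (Cr2) sit on the surface of mature B cells, and PAX5 is the transcription factor that keeps the lineage. In mice B cells are a main population of the spleen, where follicular and marginal zone B cells lie side by side, and of lymph nodes. The subcutaneous inguinal fat pad can hold a lymph node.

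RefSeq promoter sequences (build GRCm38.p6) were matched for 5 of the 9 genes, Cd79a, Cd22, Pax5, Fcer2a and Cr2, with 3 start sites for Fcer2a. The windows of 3 genes are shown as the 250 bases before the start site, because they hold motifs of factor families known to act in B cells. All 9 genes were high and low on the same subcutaneous fat arrays, and a link between motifs and these levels was not tested. Cd79a lies at chr7:24897247-24897496 on the plus strand, Cd22 at chr7:30879029-30879278 and the first Fcer2a start at chr8:3694175-3694424, both on the minus strand. Capitals mark the letters CCCNNGGG, the core of the form bound by early B cell factors, or GGAAGT, a core form of Ets family sites, on either strand.
Cd79a: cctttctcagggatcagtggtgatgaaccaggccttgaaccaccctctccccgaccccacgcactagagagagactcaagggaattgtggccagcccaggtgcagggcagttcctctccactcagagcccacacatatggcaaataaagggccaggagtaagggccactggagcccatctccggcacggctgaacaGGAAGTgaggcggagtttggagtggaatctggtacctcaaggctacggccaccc
Cd22: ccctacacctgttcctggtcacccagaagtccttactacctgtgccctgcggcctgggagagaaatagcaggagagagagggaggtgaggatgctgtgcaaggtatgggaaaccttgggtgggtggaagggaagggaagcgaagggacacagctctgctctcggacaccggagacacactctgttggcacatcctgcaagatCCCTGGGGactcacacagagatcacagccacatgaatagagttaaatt
Fcer2a: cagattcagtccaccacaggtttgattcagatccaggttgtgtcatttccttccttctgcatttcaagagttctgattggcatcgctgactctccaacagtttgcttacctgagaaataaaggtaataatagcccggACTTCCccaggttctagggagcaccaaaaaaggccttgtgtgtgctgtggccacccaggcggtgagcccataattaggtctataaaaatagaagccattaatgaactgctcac
The Ets-type letters stood in the window of Cd79a and, on the other strand, in that of Cr2 and the first of the 3 Fcer2a windows. Of all 32851 such windows 19.7% hold them. The EBF-type letters stood in the window of Cd22 and in 11.8% of all windows. Another motif, the immunoglobulin octamer ATTTGCAT, stood in none of the 7 windows of these genes and in 1.6% of all. The marked letters are not in themselves binding sites.

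Array values are given as log2(signal + 16) after quantile normalization within a tissue. The median deposited signal ran from 45.9 to 119 over the 54 arrays. The defining genes of each organ were in place, with Adipoq, the fat hormone adiponectin, at 11.12 to 12.50 on every subcutaneous fat array. The liver gene Alb was not confined to liver. Quantile normalized over all 54 arrays, it ran from 4.56 to 12.46 in spleen and from 9.07 to 12.08 in subcutaneous fat. In kidney and muscle it reached 10.32 and 11.24, against 12.81 to 12.93 in liver. Beside Alb, 4 of the subcutaneous fat arrays carried genes of another organ. Swim array 22 held Umod and Slc12a1, made by the kidney tubule, at 15.24 and 11.80, against at most 5.54 and 4.77 on the other 7 arrays. Swim array 23 held Ckm, muscle creatine kinase, at 11.51, and control array 20 held it at 7.55. Swim array 24 held the keratins Krt5 and Krt14 at 15.24 and 10.65, against at most 5.74 and 5.63 elsewhere. In spleen the 4 swim arrays had a lower level of a list of 13 neutrophil and precursor genes, at a mean of 5.35 to 6.11 against 7.48 to 8.50 in controls.

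In control mice all 9 genes had their highest mean level in spleen and the second highest in subcutaneous fat. On a scale common to all 54 arrays, Cd79a stood at 11.20 ± 0.03 (SD, n = 4) in control spleen and at 9.69 ± 3.18 (SD, n = 4) in control subcutaneous fat. In the other 5 tissues its control means were 4.34 to 5.12. Pax5 stood at 10.95 ± 0.09 (SD, n = 4) in spleen, 8.94 ± 2.76 (SD, n = 4) in subcutaneous fat and 4.88 to 5.23 elsewhere. The same order of the top 2 tissues held for all members, and the control arrays of spleen and subcutaneous fat overlapped for Cd79a, Cd79b, Cd22 and Fcer2a but not for Ms4a1, Pax5, Blk, Cr2 and Ighm. Below them the tissues mostly overlapped with their neighbour in the order. The exceptions were muscle over brain for Cd79b, kidney over brain for Ms4a1 and Cd22, liver over brain for Cr2, and visceral fat over muscle for Ighm. In swim mice spleen was again highest for 9 of 9 genes. In bulk tissue, fewer cells of a type and less RNA per cell cannot be told apart.

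**Figure D1:**
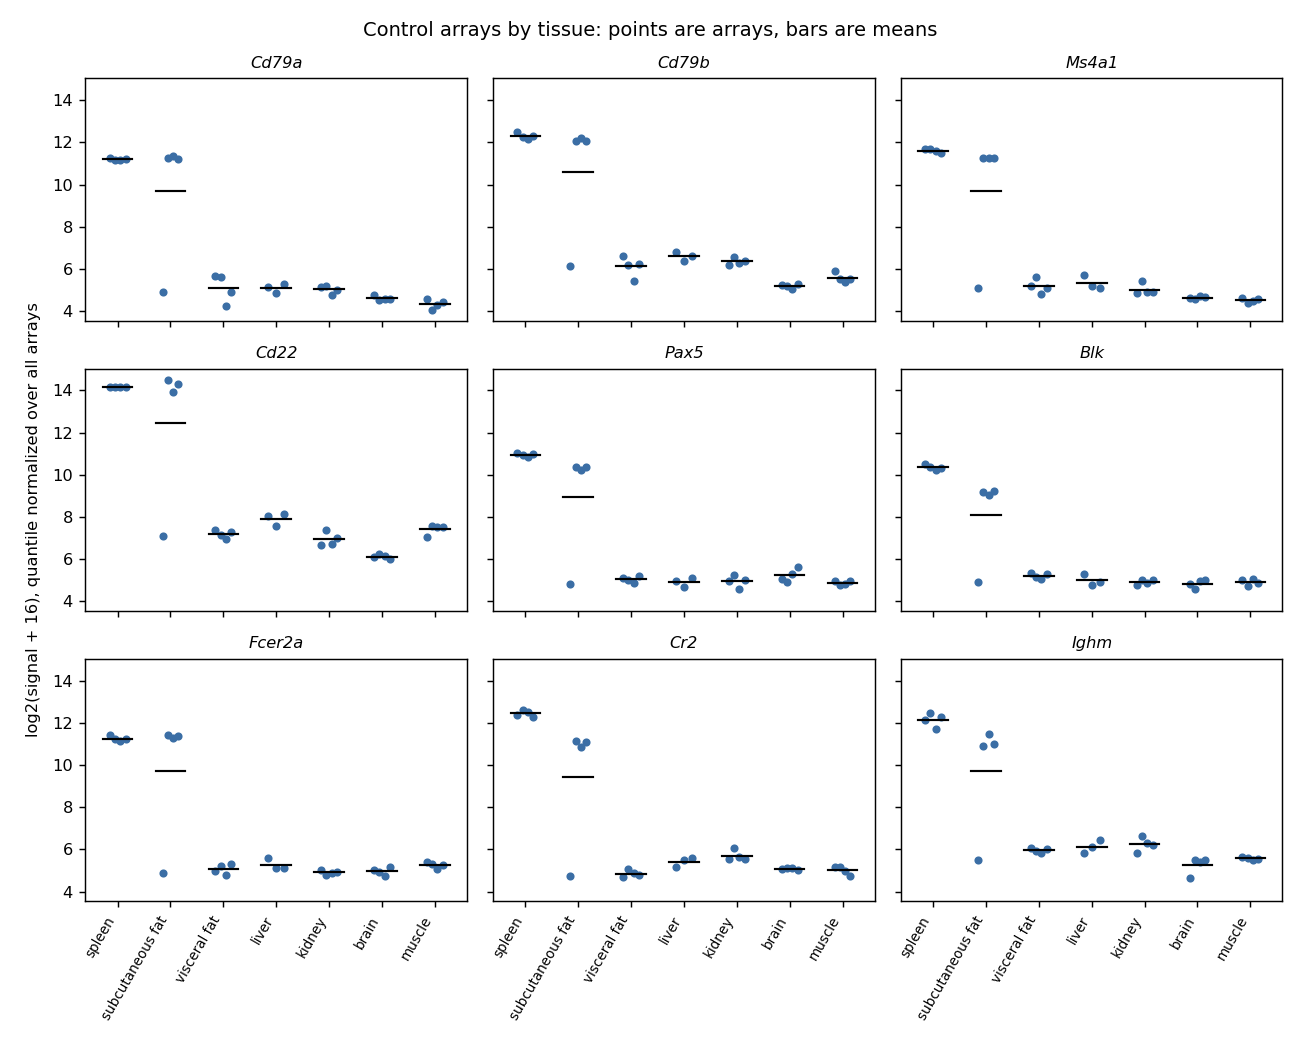
Level of the 9 B cell genes in control arrays of 7 tissues, as log2(signal + 16) quantile normalized over all arrays (vertical axis), with 1 point per array and a bar at the mean. The 4 spleen arrays lie close together, while in subcutaneous fat 1 control array sits at the level of the 5 other tissues and the other 3 near spleen.

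In subcutaneous fat the B cell genes differed by several log2 units between arrays of the same group. Among the receptor chains, Cd79a stood at 4.95, 11.14, 11.26 and 11.13 on control arrays 17 to 20 and at 5.19, 8.60, 9.87 and 4.43 on swim arrays 21 to 24. Control arrays 18, 19 and 20 were high, swim 23 and swim 22 lay between, and control 17, swim 21 and swim 24 were low. Cd79b, the partner chain, stood at 6.23, 11.94, 12.06 and 11.94 in controls and at 6.15, 9.86, 11.17 and 5.33 in swim arrays. The heavy chain gene Ighm, read by probe set 10403054, stood at 5.60, 10.77, 11.35 and 10.90 in controls and at 5.60, 7.91, 9.37 and 5.73 in swim arrays. Its other probe set, 10402991, gave 5.67, 11.40, 11.96 and 11.35, then 5.26, 5.66, 9.68 and 5.76. The 2 Ighm probe sets disagreed on swim 22, where the first lay above the 3 low arrays and the second among them.

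The surface receptors followed the same arrays. Ms4a1, which encodes CD20, stood at 5.14, 11.19, 11.15 and 11.15 in controls and at 5.42, 8.97, 10.30 and 4.52 in swim arrays. Cd22, an inhibitory co-receptor, stood at 7.17, 13.89, 13.28 and 13.64 in controls and at 7.09, 11.22, 12.49 and 6.97 in swim arrays. Fcer2a, the low affinity IgE receptor CD23, stood at 4.92, 11.31, 11.19 and 11.26 in controls and at 5.21, 8.89, 10.22 and 4.78 in swim arrays. In each of these genes control 17 lay within the range of swim 21 and swim 24 or next to it, several log2 units from the other 3 controls. Cr2, complement receptor 2, stood at 4.75, 11.05, 10.73 and 10.99 in controls and at 5.63, 9.24, 10.56 and 5.06 in swim arrays.

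The kinase and the transcription factor did so too. Blk stood at 4.95, 9.11, 8.96 and 9.13 in controls and at 4.87, 6.77, 8.02 and 4.91 in swim arrays. Pax5 stood at 4.83, 10.25, 10.11 and 10.24 in controls and at 5.05, 7.95, 9.29 and 4.73 in swim arrays. The sequence of control 18 to 20, swim 23, swim 22 and then the other 3 arrays held for 9 of 9 genes on the scale within the tissue, with Ighm read by probe set 10403054. In the deposited signals the same 5 arrays were the highest for 9 of 9 genes, and swim 23 lay above control 20 for Cr2.

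**Figure D2:**
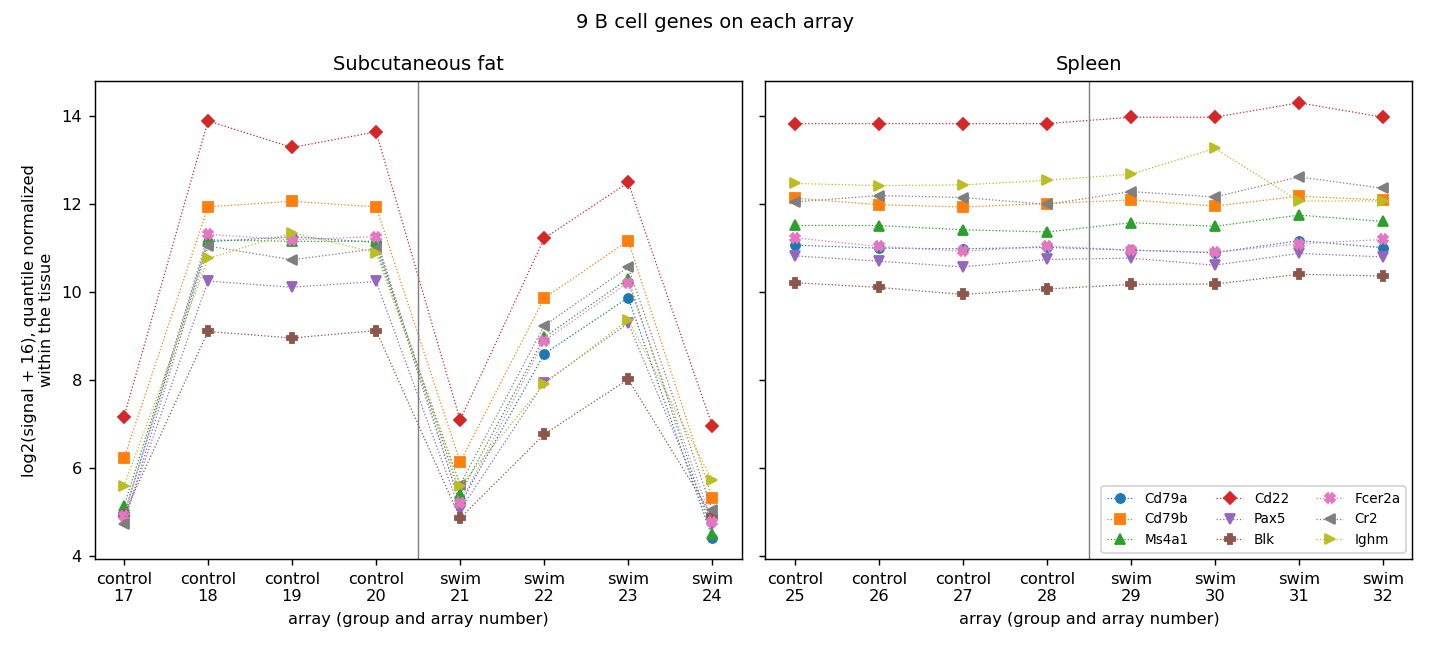
The 9 B cell genes on each array of subcutaneous fat (left) and spleen (right), as log2(signal + 16) quantile normalized within the tissue, with 1 marker type per gene and dotted lines to guide the eye. In subcutaneous fat all genes move together, from about the level of control 17 to that of controls 18 to 20, while in spleen the genes vary far less over the 8 arrays, with the widest spread in Ighm on the swim arrays.

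Genes of lymph nodes moved with them. Glycam1, a ligand on the high endothelial venules of lymph nodes, stood at 5.69, 13.16, 13.64 and 13.50 in control and 5.71, 11.78, 13.16 and 6.03 in swim subcutaneous fat, and at 5.49 to 5.88 in spleen. Ccl19, a chemokine of lymphoid stroma, was at 11.25 to 11.45 in controls 18 to 20, at 10.44 in swim 23 and 9.08 in swim 22, and at 6.95 to 7.36 in the other 3 arrays. Over 15 T cell genes the mean was 9.38 to 9.74 in controls 18 to 20, 8.90 in swim 23, 7.26 in swim 22 and 5.17 to 5.65 in the low arrays. Over 9 adipocyte genes it ran the other way, at 10.66 to 11.35 in controls 18 to 20 and 12.03 to 12.28 in control 17, swim 21 and swim 24. Beyond a fit with the T cell list as a covariate, the part of lymph node tissue in the swim comparison of this depot was not tested.

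**Figure D3:**
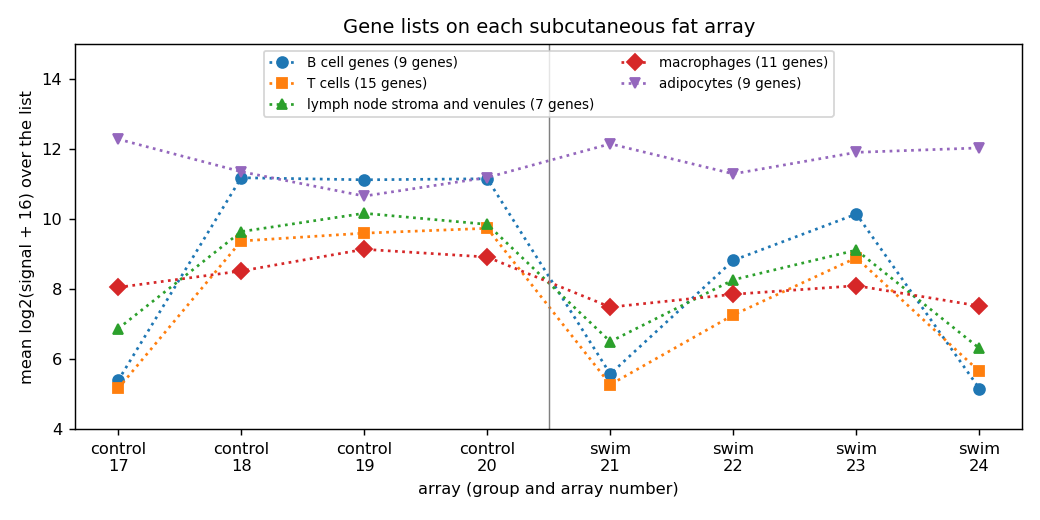
Mean log2(signal + 16) over 5 gene lists (vertical axis) on each of the 8 subcutaneous fat arrays (horizontal axis), with 1 marker type per list. B cell, T cell and lymph node lists are high on controls 18 to 20, lower on swim 23 and swim 22 and lowest on control 17, swim 21 and swim 24, and adipocyte genes are highest on those last 3 arrays.

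Set against the mean signal of the control spleens, read by the same probe set, controls 18, 19 and 20 held a median of 79.5%, 78.0% and 77.9% over the 9 genes. Swim 23 held 37.1% and swim 22 held 13.9%. The low arrays, control 17, swim 21 and swim 24, held 0.605%, 0.801% and 0.451%, values near the array's floor. The genes did not share 1 percentage. Cd79a reached 103%, 111% and 102% of spleen on controls 18 to 20, and Fcer2a reached 111%, 103% and 108%. On the same 3 arrays Cr2 reached 40.5%, 32.8% and 38.9%, Blk 44.2%, 39.5% and 44.9%, and Ighm 40.6%, 60.2% and 44.3%. Swim 23 and swim 22 gave the 9 genes in 1 and the same order, from Fcer2a at 52.7% and 20.1%, Cd79b at 48.5% and 19.8% and Ms4a1 at 43.4% and 16.6% down to Blk at 19% and 6.72% and Ighm at 15.1% and 4.87%. In the deposited signals the medians were 86.4%, 66.6% and 55.5% for controls 18 to 20, 38.4% for swim 23 and 16% for swim 22.

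**Figure D4:**
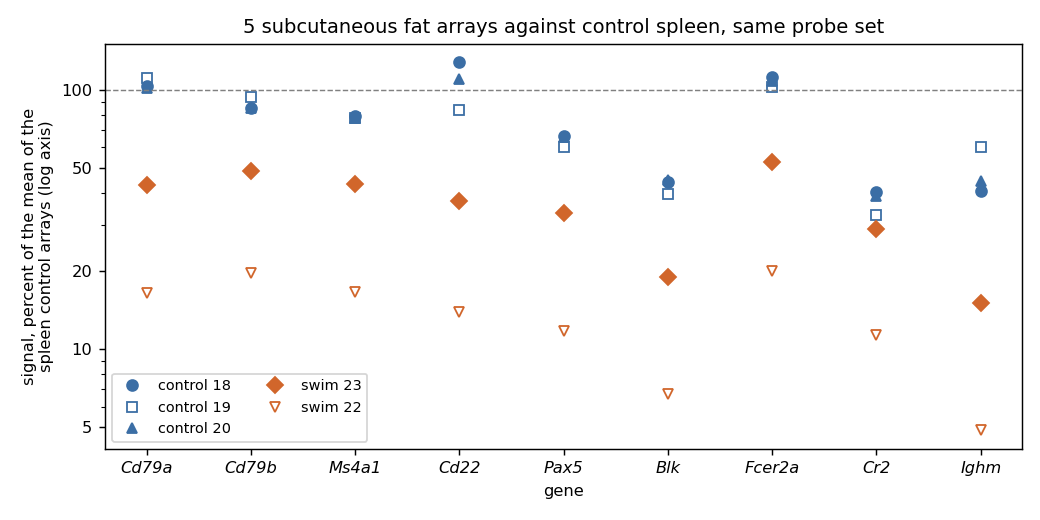
Signal of the 9 B cell genes on 5 subcutaneous fat arrays as a percent of the mean signal of 4 control spleens on the same probe set (log axis), with controls in blue and swim arrays in orange and a dashed line at 100%. Cd79a and Fcer2a lie near the line on the 3 controls while Cr2, Blk and Ighm lie between 32.8% and 60.2%, and both swim arrays lie lower for every gene.

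Swim against control in subcutaneous fat gave no call. None of the 9 genes passed an adjusted p of 0.05 (limma with Benjamini-Hochberg adjustment over 11187 genes), where 0% of all genes did and 21.8% had an unadjusted p under 0.05, none of the 9 among them. The swim means were lower for 9 of 9 genes, with a median difference of -2.40 on the log2 scale against 0.05 over all genes, and the groups overlapped for all 9, where 9.1% of all genes had groups that did not. Cd79a differed by -2.60 with an SE of 1.74 and a 95% interval from -6.58 to 1.38 (limma adjusted p = 0.353), and Blk by -1.89 with an SE of 1.1 and an interval from -4.41 to 0.63 (limma adjusted p = 0.304). The intervals thus held both a large fall and a rise, and the adjusted p of the 9 genes ran from 0.292 to 0.518. Without control 17, 6 of the 9 were called lower (Cd79a, Cd22, Pax5, Blk, Fcer2a and Ighm), beside 16.7% of all genes. All 9 were called with array weights and in 1 fit of all arrays, beside 50.4% and 57.8% of all genes called in either direction. The fit of all arrays takes 1 spread for all tissues, so it understates the spread of the 9 genes in this depot. Without swim 22 and swim 23, none was called, where 0% of all genes were. With the mean of the T cell list as a covariate, Cd79b, Ms4a1, Cd22, Pax5, Fcer2a and Cr2 had differences above 0, from 0.03 to 0.75. Cd79a, at -0.11, Blk and Ighm stayed below 0, and 0 of 9 were called, beside 0.0983% of all genes. No alternative run gave Blk a difference above -0.297 or Ighm one above -0.47.

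The wider B cell programme of this depot stood the same way. Of 22 other mature B cell genes, 0 were called and the median difference was -2.14. The medians were -1.34 for 18 B cell transcription factors, -1.45 for 18 genes of receptor signalling, -1.32 for 11 plasma cell genes and -0.86 for 11 marginal zone and B-1 genes, with 0 called in each. The 14 T cell genes tested had a median of -1.95 and the 10 macrophage genes one of -1.14, again with 0 called. The mean over the other mature B cell genes was 10.36 to 10.62 in controls 18 to 20, 9.33 in swim 23, 8.04 in swim 22 and 5.89 to 6.23 in the low arrays.

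In spleen the receptor genes had nearly the same level in both groups. Cd79a stood at 11.07, 11.00, 10.98 and 11.02 on control arrays 25 to 28 and at 10.95, 10.89, 11.17 and 11.01 on swim arrays 29 to 32, a difference of -0.01 with an SE of 0.06 and a 95% interval from -0.16 to 0.14 (limma adjusted p = 0.926). Cd79b stood at 12.13, 11.99, 11.93 and 12.01 in controls and at 12.09, 11.95, 12.18 and 12.09 in swim arrays, a difference of 0.06 with an interval from -0.08 to 0.21 (limma adjusted p = 0.519). The groups overlapped for both chains. Ighm, read here by probe set 10402991, stood at 12.47, 12.42, 12.43 and 12.54 in controls and at 12.68, 13.26, 12.07 and 12.07 in swim arrays (difference 0.05, SE 0.24, limma adjusted p = 0.890). Its swim arrays parted, 29 and 30 above all controls and 31 and 32 below all of them, with an SD of 0.57 against 0.05. The other Ighm probe set gave 11.90, 12.12, 11.53 and 12.02, then 12.39, 12.03, 11.54 and 11.48. A list of 13 genes of plasma cells, which make large amounts of immunoglobulin, was at 9.65 and 9.71 on swim 29 and 30 and at 9.04 and 9.06 on swim 31 and 32, against 9.16 to 9.50 in controls. Its link to the Ighm values was not tested.

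Among the surface genes of the spleen, 3 had swim means above control with an unadjusted p under 0.05 that the adjustment did not keep. Ms4a1 stood at 11.51, 11.51, 11.42 and 11.37 in controls and at 11.58, 11.49, 11.75 and 11.60 in swim arrays (difference 0.15, SE 0.07, limma adjusted p = 0.137). Cr2, which marginal zone B cells and follicular dendritic cells carry at high level, stood at 12.05, 12.19, 12.15 and 11.99 in controls and at 12.28, 12.16, 12.62 and 12.36 in swim arrays (difference 0.26, SE 0.10, limma adjusted p = 0.0948). It overlapped between groups through swim 30 alone, and without that array the difference was 0.32 (limma adjusted p = 0.0434), in a run that called 19.7% of all genes. With each other array left out in turn it was not called, and in the deposited signals its difference was -0.016. Cd22 stood at 13.83 on all 4 control arrays and at 13.97, 13.97, 14.30 and 13.97 on swim arrays (difference 0.23, SE 0.08, limma adjusted p = 0.0777). Its control SD of 0 is a product of quantile normalization, since it was the probe set of rank 4 on each control array and of rank 3, 3, 2 and 3 on the swim arrays, and ranks alone set these values. Its deposited signals were 17380, 14979.9, 16082 and 18691 in controls and 13499, 13811, 13523 and 16535 in swim arrays, and its difference after median centring was -0.04. Fcer2a stood at 11.23, 11.04, 10.93 and 11.05 in controls and at 10.96, 10.90, 11.10 and 11.20 in swim arrays (difference -0.02, 95% interval from -0.22 to 0.17, limma adjusted p = 0.871).

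Blk stood at 10.21, 10.11, 9.95 and 10.07 in control spleen and at 10.18, 10.18, 10.41 and 10.37 in swim spleen (difference 0.20, SE 0.08, limma adjusted p = 0.110). Pax5 stood at 10.82, 10.70, 10.57 and 10.74 and at 10.77, 10.61, 10.88 and 10.80 (difference 0.06, SE 0.07, limma adjusted p = 0.621). In all, 0 of 9 genes were called in spleen, where 14.2% of 11078 genes were, and 4 of 9 had an unadjusted p under 0.05, where 34.3% of all genes did. The groups failed to overlap only for Cd22, against 23.8% of all genes. The median difference of the 9 was 0.06 against 0.0048 for all genes. In the deposited signals, where the median of all genes was -0.28, the 9 differences ran from -0.31 to -0.02 and 2 were called lower, where 45.8% of all genes were, Cd79a at -0.31 (limma adjusted p = 0.0330) and Fcer2a at -0.31 (limma adjusted p = 0.0493).

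Genes of other cell types were called in spleen, where 7.25% of all genes were called higher and 6.96% lower. Of 15 T cell genes, 9 rose and 0 fell, with a median of 0.40, among them Cd3d, a chain of the T cell receptor complex, from 8.95, 8.97, 9.06 and 9.08 to 9.35, 9.51, 9.79 and 9.40. After median centring 4 of the T cell genes were called higher, where 2.26% of all genes were. Over all alternative runs 0 to 11 of them were called. Of 10 neutrophil genes all 10 fell, with a median of -2.59, and 8 of 10 macrophage genes and 7 of 8 megakaryocyte genes fell. The calls over all genes were 803 higher and 771 lower, and 250 higher and 1360 lower after median centring. With the neutrophil list as a covariate the difference turned negative for Cd79b, Ms4a1, Cd22, Pax5, Blk and Cr2, and 0 of the 9 were called, where 0% of all genes were. The means of that list did not overlap between swim and control arrays, so this fit cannot part the list from swimming. The part of these cell types in the B cell values was not tested.

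**Figure D5:**
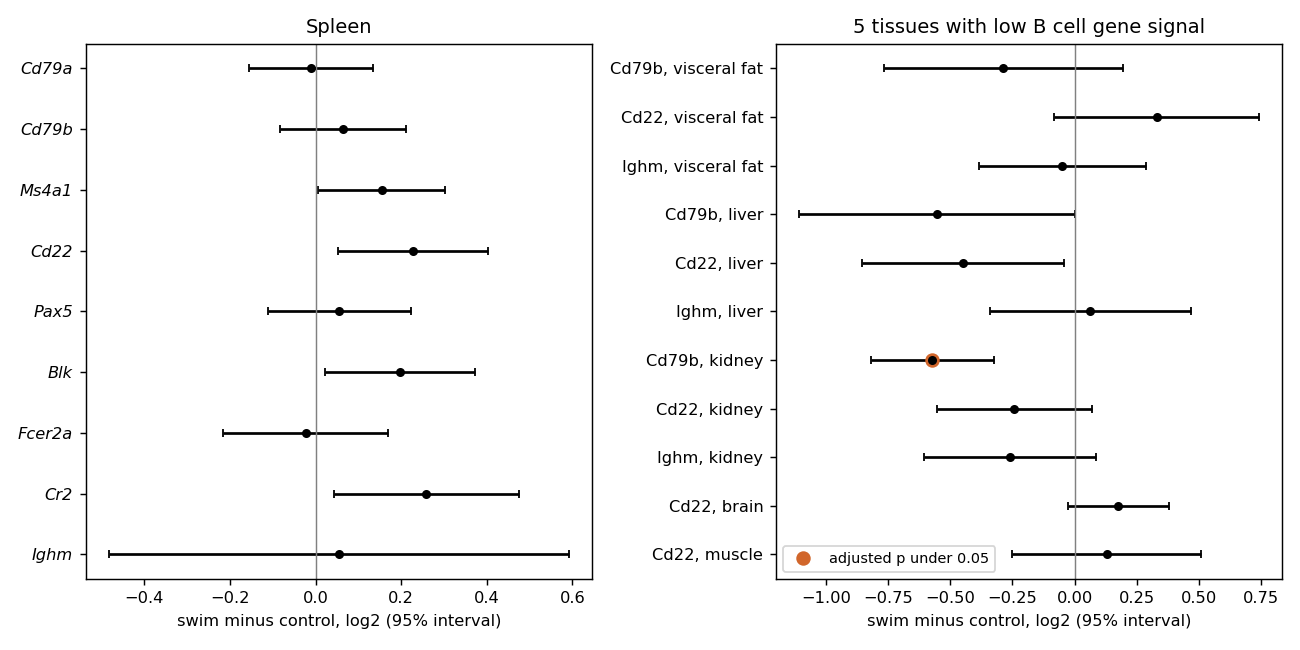
Swim minus control on the log2 scale (horizontal axis, points, with 95% intervals as bars) for the 9 B cell genes in spleen (left) and for those above the filter on low signal in 5 other tissues (right). In spleen the intervals of Ms4a1, Cd22, Blk and Cr2 lie just above 0, none past the adjusted threshold, and only Cd79b in kidney (orange) was called.

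Among the wider B cell genes of the spleen, a few were called in each direction, beside the 14.2% of all genes called. Malt1, a protease that relays the receptor signal to NF-kappaB, rose by 0.40 with an SE of 0.07 (limma adjusted p = 0.0108), and Vav1 by 0.19 (limma adjusted p = 0.0330). They were the 2 called of 18 signalling genes. Vpreb3, expressed in B cell precursors and some mature B cells, fell by 0.34 (limma adjusted p = 0.0313), and Cd180, a Toll-like receptor homologue of B cells, rose by 0.30 (limma adjusted p = 0.0466), the 2 called of 22 other mature genes. Of 18 transcription factors, Tcf3, which encodes the E2A proteins, fell by 0.33 (limma adjusted p = 0.0148) and Nfkb2 rose by 0.22 (limma adjusted p = 0.0289). In a list of 12 marginal zone and B-1 genes, 4 fell (Asb2, Plac8, Cd36 and Cd9, by 0.21 to 0.35) and Dtx1, a Notch pathway gene, rose by 0.26. Several of these 4 are also made by macrophages, platelets or other cells, and 8 of 10 macrophage genes fell. The part of those cells in the fall of the 4 genes was not tested. Of 8 germinal centre genes only Fas passed, higher by 0.32, and of 11 plasma cell genes 0 did. After median centring 0 genes of these 6 lists were called higher. Leaving out 1 array moved the counts. The 5 marginal zone and B-1 genes became 1 without control 25, 27 or 28 and 2 without control 26, swim 31 or swim 32. The 2 signalling genes became 5 without swim 30 and 1 without any other array, the germinal centre gene became 4 genes without swim 29, and the counts ran from 0 to 3 for the other mature genes and from 1 to 3 for the transcription factors.

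Of 7 survival ligands and receptors of B cells tested in spleen, 2 rose and 5 did not pass, beside the 14.2% of all genes called. Il7, the cytokine that B cell precursors and T cells need, rose by 0.57 with an SE of 0.07 (limma adjusted p = 0.00600). Cd40lg, the T cell ligand that licenses B cells, rose by 0.64 with an SE of 0.12 (limma adjusted p = 0.0128). Cd40lg is itself made by T cells, of whose 15 genes 9 rose, and their part in its rise was not tested. Tnfrsf13c, the BAFF receptor, differed by -0.24 (limma adjusted p = 0.0542). Of 4 precursor genes tested, Cd93, which endothelial and myeloid cells also make, fell by 0.52 (limma adjusted p = 0.0116).

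The swim difference of subcutaneous fat was set against that of spleen in 1 model. The 9 genes differed by -2.78 to -2.01 between the tissues, with limma adjusted p from 0.248 to 0.467, and 0 of 9 were called, where 0.0685% of 10219 genes were and 26.8% had an unadjusted p under 0.05, none of the 9 among them. Without control 17 of subcutaneous fat 9 of 9 were called lower, where 22.9% of all genes were and 46.2% were called in either direction. The model takes 1 spread for both tissues, though Cd79a had SDs of 3.11 and 2.63 in control and swim subcutaneous fat and 0.04 and 0.12 in spleen. Its p-values may therefore be too small. Without control 17, Cd79b was called here (limma adjusted p = 0.0321) but not in subcutaneous fat alone (limma adjusted p = 0.0608). Against visceral fat 0 of the 3 genes tested were called, where 0% of 10536 genes were and 20.9% had an unadjusted p under 0.05, and without control 17 Cd22 and Ighm were called lower, as 15.7% of all genes were.

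Outside the spleen and the subcutaneous depot most members lay under the filter on low signal. In all, 3 passed it in visceral fat, liver and kidney (Cd79b, Cd22 and Ighm) and 1 in brain and muscle (Cd22). In kidney Cd79b stood at 6.20, 6.64, 6.29 and 6.44 on control arrays and at 6.08, 5.62, 5.77 and 5.81 on swim arrays, and it fell by 0.57 with an SE of 0.11 (limma adjusted p = 0.00521). The groups did not overlap, as for 15.5% of all genes with swim lower, and 14% of 11189 genes were called lower. The partner chain Cd79a, below the filter, stood between 4.74 and 5.16 in controls and between 4.35 and 4.59 in swim kidneys. Ms4a1, also below it, stood at 4.84, 5.40, 4.88 and 4.91 and at 4.61, 4.35, 4.51 and 4.68. Both again had groups without overlap, but the 15.5% covers only genes over the filter and no such share was taken below it. Elsewhere below the filter, the groups also failed to overlap for Blk in visceral fat and Ms4a1 in brain, both lower in swim mice. They failed to overlap for Ighm in brain and muscle as well, there with swim higher. Without the filter Cd79b, Cd79a and Ms4a1 were called lower in kidney, as were 7.22% of all genes, with 12.7% called in either direction. In that run Pax5 differed by -0.15, Cr2 by -0.19, Blk by 0.05 and Fcer2a by 0.02, none of them called. The mean deposited signals of Cd79a (15.5 in control, 6.4 in swim kidneys) and Ms4a1 (15.6 and 7.3) lay under the 16 added before the log. In kidney Cd22 differed by -0.24 (limma adjusted p = 0.231) and Ighm by -0.26 (limma adjusted p = 0.247). The call of Cd79b was lost in the deposited signals (-0.45, limma adjusted p = 0.9997) and in 1 fit of all arrays (limma adjusted p = 0.874).

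Genes of myeloid cells were lower in the same kidneys. The mean of 11 macrophage genes was 6.72 to 6.87 in controls and 6.31 to 6.45 in swim mice, and 6 of 7 tested fell. Of 5 other mature B cell genes tested 3 fell, Cd72, a B cell co-receptor that macrophages also make, by 1.0 with an SE of 0.09 (limma adjusted p = 0.000208), Cd180 by 0.40 and Ly86 by 0.29. Of 14 signalling genes 5 fell, among them Pik3ap1 by 0.60 and the pan-leukocyte gene Ptprc by 0.42. The part of macrophages in the fall of Cd79b was not tested. Ebf1 and Foxo1, transcription factors that B cells share with many other cells, rose by 0.31 and 0.27. Over all genes in kidney 1245 were higher and 1568 lower, and 725 and 2058 after median centring.

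In liver Cd79b stood at 6.52, 6.09 and 6.30 in controls and at 6.34, 5.93, 5.29 and 5.44 in swim mice (difference -0.55, SE 0.24, limma adjusted p = 0.232). Cd22 differed there by -0.45 (limma adjusted p = 0.190) and Ighm by 0.06 (limma adjusted p = 0.871), so 0 of 3 were called, where 4.13% of 11048 genes were. Of the 3, Cd22 had an unadjusted p under 0.05, as 21.6% of all genes did. Of 10 other mature B cell genes tested in liver 2 fell, Ly86 by 0.75 and Cd180 by 0.53, beside 8 of 9 macrophage genes. In visceral fat Cd79b differed by -0.29 (limma adjusted p = 0.358), Cd22 by 0.33 (limma adjusted p = 0.215) and Ighm by -0.05 (limma adjusted p = 0.835), with 23.8% of 11109 genes called. None of the 3 had an unadjusted p under 0.05, where 38.3% of all genes did. No T cell gene passed the filter there. Among the related lists of visceral fat, the interleukin 7 receptor Il7r rose by 1.17 with an SE of 0.28, Cd93 by 0.84 and Cd1d1 by 0.67, while the secretory genes Derl3, Creld2 and Xbp1 fell by 0.50, 0.39 and 0.32. Cd22 was not called in brain (0.18, limma adjusted p = 0.368, 0.602% of 11127 genes called) or in muscle (0.13, limma adjusted p = 0.618, 11.9% of 11063 genes called). Its unadjusted p was above 0.05 in both, where it was under 0.05 for 16.2% of all genes in brain and 31.9% in muscle.

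The genes most like the B cell genes were sought by their Pearson correlation with the mean of the 9, as a description. Over all 54 arrays and 11174 other genes they were Btla at 0.998, Spib, H2-Ob, Siglecg, Pou2af1, Fcrl1, Carmil2, H2-Eb2, Slamf6 and Treml2 at 0.995. Arrays of a tissue share its level, so the 54 arrays are not independent points. Within the 8 subcutaneous fat arrays, over 11178 genes, H2-Ob led at 0.999, followed by Ms4a4c and Btla, both lymphocyte genes. Within the 8 spleen arrays, over 11069 genes, the leading genes were others, Cdkn2aip and Grem1 at 0.976, and only S1pr1 of the 10 stood in a B cell list.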

How the data were processed

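The authors deposited 1 table of signal intensity per probe set for all 54 arrays, on a linear scale, and the submitters' processing notes name PLIER and limma without versions or settings. No source used here gives a genome build or annotation release. Of the probe sets, 21086 carry 1 gene symbol, 1867 several and 2964 none, and only the first were named. Values were taken as log2(signal + 16) and quantile normalized within each tissue, or over all arrays for levels across tissues. Probe sets in the lowest 40% by mean were dropped, and where a gene had several, the brightest on average was used. Swim was tested against control in each tissue with limma 3.58.1 (R 4.3.3), two-sided, with Benjamini-Hochberg adjustment over all genes tested and a threshold of 0.05. On simulated data with 200 genes changed by 1 log2 unit, this test found 96.5% in spleen and 36.5% in subcutaneous fat, and it called 0 genes where none was changed. The simulated noise was independent between genes, unlike that of these arrays. In subcutaneous fat the 9 genes moved together, with SEs of 1.10 to 1.83, so the simulated shares do not give the power for them. Groups held few arrays, and what limits the precision was not tested. The genes and lists were chosen with earlier results of these data known. Of the 262 names in the lists beside the 9 genes, 223 were matched. Named in the text are the 9 genes, up to 4 genes of smallest p of each B cell list, the first genes of the marker lists and the 10 genes most like the 9. Slc12a1, Krt14 and Cd3d come under that rule. Promoter sequences are RefSeq's. Alternatives to these choices are in the closing section.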

Additional observations from a re-analysis of the deposited data

Results flagged for a closer look

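Among 64 groups of 4 arrays examined, 18 values stood apart from the other 3 arrays of their group by Dixon's criterion at the 95% level. Chance gives about 1 in 20 for independent groups, but these groups share arrays and hold genes that move together. The 18 values therefore give no measure of an excess over chance. Control array 17 of subcutaneous fat gave 12 of them, all low: Cd79a at 4.95, Cd79b at 6.23, Ms4a1 at 5.14, Cd22 at 7.17, Pax5 at 4.83, Blk at 4.95, Fcer2a at 4.92, Cr2 at 4.75, Ighm at 5.60, Glycam1 at 5.69, Cd3d at 5.04 and Cd3e at 5.83. The other 3 controls had Cd79a at 11.13 to 11.26. In the same tissue Umod stood at 15.24 on swim array 22, and Ckm at 7.55 on control array 20 and 11.51 on swim array 23. In spleen Cd22 stood at 14.30 on swim array 31 and at 13.97 on the other 3. These values are set by its rank alone, 2 on swim 31 and 3 on each of the others. Its deposited signal on swim 31 was 13523, within the range of the others, 13499 to 16535. In liver Ighm stood at 6.39 on swim array 55 and at 5.78 to 5.85 on the others, and in muscle Cd22 stood at 6.71 on control array 41 and at 7.18 to 7.25 on the others. Apart from Cd22 in spleen, the cause of these values was not tested.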

How the results depend on the processing

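No paired analysis was possible because the groups share no replicate numbers. Percentages in brackets are shares of all genes called in the same run. In spleen 0 of 9 genes were called, 2 in the deposited values (46.5% of all genes) and 0 to 1 when 1 array was left out (Cr2 without swim 30, 19.7%). In subcutaneous fat 0 were called, 9 with array weights (50.4%), 9 in 1 fit of all arrays (57.8%) and 0 to 6 when 1 array was left out (6 without control 17, 35.2%). In visceral fat 0 were called, 1 without the filter (Blk, 14%) and 0 to 1 when 1 array was left out (Cd79b at -0.52 without control 3, 19.9%). In liver 0 were called and 1 in the deposited values (Cd79b at -0.57, 4.68%). In kidney 1 was called, 0 in the deposited values (0.349%), 3 without the filter (12.7%), 0 with the lowest 60% left out, where no member was tested, and 0 in 1 fit of all arrays (3.49%). The difference between subcutaneous fat and spleen gave 0 calls and 0 to 9 when 1 array was left out (9 without control 17, 46.2%), and that between the fat depots 0 and 0 to 2 (2 without control 17, 40.4%). The fit of all arrays and the fits of these differences take 1 spread over tissues whose spreads differ. In brain and muscle no alternative run gave a call. Of signs in spleen, the deposited values gave Cd79b -0.18, Ms4a1 -0.12, Cd22 -0.23, Pax5 -0.26, Blk -0.11, Cr2 -0.016 and Ighm -0.15. Median centring gave Cd22 -0.039 and Pax5 -0.074, and quantile normalization over all arrays gave Ighm -0.023. With the neutrophil list as covariate Cd79b was -0.23, Ms4a1 -0.17, Cd22 -0.11, Pax5 -0.38, Blk -0.34 and Cr2 -0.16, and with the T cell list Cd79b was -0.053, Cd22 -0.017, Pax5 -0.10 and Blk -0.0082. The neutrophil list did not overlap between the groups, so that fit cannot part it from swimming. Of the 15 T cell genes, 11 had spleen swim arrays above all controls, where 23.8% of all genes had groups without overlap. With the T cell list as covariate 0% of all genes were called in spleen. That fit too can hardly part its list from swimming. The other Ighm probe set, an alternative chosen after seeing the data, gave -0.030. With 1 array left out, Cd79a ran from -0.063 to 0.026, Fcer2a from -0.074 to 0.036 and Ighm from -0.19 to 0.22 in spleen, and Ighm from -0.091 to 0.094 in visceral fat and from -0.083 to 0.20 in liver. The other settings spread wider in spleen, from -0.34 to -0.003 for Cd79a, -0.51 to -0.017 for Fcer2a and -0.15 to 1.33 for Ighm. In subcutaneous fat the T cell list as covariate gave Cd79b 0.030, Ms4a1 0.13, Cd22 0.073, Pax5 0.045, Fcer2a 0.16 and Cr2 0.75. In muscle Cd22 was -0.052 in the deposited values and -0.0044 with array weights. The cause was not tested. Over all genes, the alternatives gave 0 to 5146 calls in spleen, 0 to 6465 in subcutaneous fat and 39 to 3038 in kidney, against 1574, 0 and 2813.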

Other observations

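A probe set without a gene symbol, 10403031, singled out after its values were seen, had the highest signal in spleen, at 199646 to 606819 in control and 148674 to 506401 in swim arrays as deposited. In subcutaneous fat it stood at 18.1, 101007, 116701 and 69091 in controls 17 to 20 and at 18.6, 10746, 23537 and 89.0 in swim arrays 21 to 24, high on the arrays on which the B cell genes were high.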
